A study of Mus musculus with 6 samples.

Results

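The genes described here belong to Ras signalling and its relatives: the small GTPases Hras, Nras, Rras and Rras2, the regulators Rasgrp1, Rasgrp3 and Rasa1, and the GTPase-like proteins Gem and Rrad. They were picked by name from 18193 genes with a probe set of their own on the array. All probe sets whose platform annotation gave 1 of these 9 symbols alone were taken, which gave 17 probe sets for 8 genes. Hras was not analysed here. The names were put together with results of these arrays already known, and the contrast of Zeb1 with control cells is the one that set them, so their values are given as a description. No p-value is given for them, and their calls in the test over all probe sets are counted only beside the background.

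The cells were 393P, a mouse lung cancer cell line. One group of cultures stably and constitutively expressed Zeb1 from a transfected vector (3 arrays), and control cultures stably carried the empty pcDNA vector (3 arrays), both in medium with serum and each array from 1 of the triplicate cultures. The labels do not tell how many transfections or clones each group comes from, so the spread between arrays is that between cultures, which may be technical. Zeb1 is a zinc-finger transcription factor known as a repressor of epithelial genes. Its brightest probe set read 9.69 ± 0.096 in Zeb1 cells, against 4.47 ± 0.034 in control cells (log2 signal, SD, n = 3 each), and 2 of 3 control readings lay at the floor of 4.45 below which signals were not read.

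Ras proteins are switches that pass signals on while they hold GTP. Exchange factors load the switch with GTP, and GTPase-activating proteins turn it off by speeding up GTP hydrolysis. Rasgrp proteins are exchange factors drawn to membranes by the lipid diacylglycerol and are best known from lymphocytes and the endothelium, and Rasa1 is the GTPase-activating protein p120 RasGAP. Gem and Rrad belong to the RGK proteins, divergent relatives of Ras that are known for restraining voltage-gated calcium channels through the channel's beta subunit.

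The sequences just before the transcription starts of Rasgrp3, Nras, Rras2 and Rasa1 are shown because Zeb1 binds DNA at E-boxes whose shared core is CACCT. RefSeq windows (build GRCm38.p6) were held for 7 of the 9 genes, the others being Gem and Rrad. For each of the 7 the 250 bases before a start were searched for CACCT and its reverse complement AGGTG, and for the full boxes CACCTG and CAGGTG, which contain the core. Capitals mark the core.
Rasgrp3, first start, chr17:75435655-75435904 (plus strand): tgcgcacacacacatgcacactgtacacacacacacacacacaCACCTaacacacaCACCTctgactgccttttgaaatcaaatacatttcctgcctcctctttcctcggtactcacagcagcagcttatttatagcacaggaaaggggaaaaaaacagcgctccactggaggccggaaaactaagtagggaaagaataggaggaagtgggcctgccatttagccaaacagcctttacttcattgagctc
Rasgrp3, second start, chr17:75465288-75465537 (plus strand): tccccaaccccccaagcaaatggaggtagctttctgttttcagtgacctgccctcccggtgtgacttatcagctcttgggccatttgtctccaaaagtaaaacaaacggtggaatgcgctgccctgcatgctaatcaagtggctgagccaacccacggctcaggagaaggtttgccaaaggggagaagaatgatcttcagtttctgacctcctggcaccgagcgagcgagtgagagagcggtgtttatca
Nras, chr3:103058035-103058284 (plus strand): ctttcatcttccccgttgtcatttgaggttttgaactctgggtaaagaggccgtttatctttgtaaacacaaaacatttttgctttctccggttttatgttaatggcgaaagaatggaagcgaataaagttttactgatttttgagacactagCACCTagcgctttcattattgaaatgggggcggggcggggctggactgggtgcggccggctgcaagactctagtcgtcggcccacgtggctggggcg
Rras2, chr7:114117782-114118031 (minus strand): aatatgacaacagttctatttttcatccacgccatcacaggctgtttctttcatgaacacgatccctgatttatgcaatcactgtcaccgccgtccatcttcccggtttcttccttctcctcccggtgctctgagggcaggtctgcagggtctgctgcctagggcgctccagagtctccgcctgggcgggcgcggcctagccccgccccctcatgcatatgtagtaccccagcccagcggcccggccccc
Rasa1, chr13:85289487-85289736 (minus strand): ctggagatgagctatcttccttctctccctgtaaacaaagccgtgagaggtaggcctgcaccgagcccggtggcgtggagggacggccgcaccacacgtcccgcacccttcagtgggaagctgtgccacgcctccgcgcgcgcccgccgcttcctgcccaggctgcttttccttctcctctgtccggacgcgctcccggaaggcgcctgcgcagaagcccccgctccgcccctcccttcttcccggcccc
Rasgrp3, whose signal was far higher in Zeb1 cells, had CACCT at 207 and 194 bases before its first start, at the end of a run of CA repeats, and none before its second start. Nras had it at 97 bases before its start. No core was in the windows of Rras2 and Rasa1. Of all 32851 RefSeq windows, 46.0% held the core and 17.2% a full box. Among the members' 10 windows 4 held the core (those of Hras, Nras, Rasgrp1 and the first start of Rasgrp3), and the full box was in that of Rasgrp1. A match is a description of letters, and binding was not measured.

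Gem and Rasgrp3 were the members that stood highest in Zeb1 cells relative to control cells, Rasa1 was moderately higher, and Nras, Rras2 and Rrad were lower. Of the 17 probe sets 13 passed the filter on low signals, and all 4 that did not read Rasgrp1. In the moderated limma test over all 20594 probe sets that passed, 6 of the 13 were called higher and 6 lower. Of all tested probe sets, 24.5% were called higher and 21.6% lower. Arrays of the groups did not overlap for 12 of the 13, against 55.4% of all tested probe sets. Because this contrast set the choice of genes, nothing is read from these counts. In a culture measured as a whole, fewer cells with a transcript and less RNA per cell cannot be told apart.

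**Figure D1:**
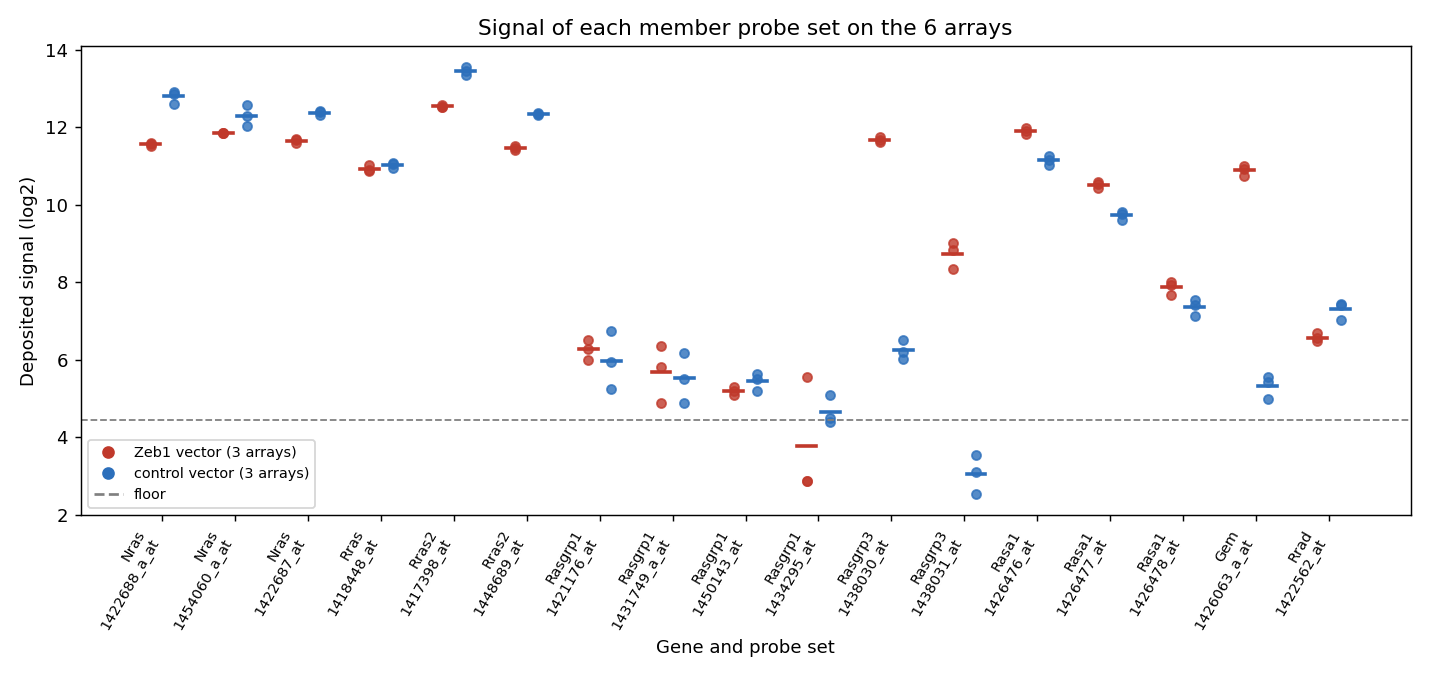
Deposited log2 signal (vertical axis) of the 17 member probe sets (horizontal axis) on the 3 Zeb1 vector arrays (red, left) and the 3 control vector arrays (blue, right). Short lines are group means of the deposited values, and the dashed line is the floor at 4.45. Gem and both Rasgrp3 probe sets lie high in Zeb1 cells and low in control cells, while Nras and Rras2 are bright in both groups.

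Among the GTPases, Nras was lower in Zeb1 cells on all 3 of its probe sets. On 1422688_a_at the log2 signals were 11.60, 11.51 and 11.56 in Zeb1 cells, against 12.92, 12.62 and 12.86 in control cells, a difference of -1.24 (moderated SE 0.082) or 2.36-fold. On 1422687_at they were 11.69, 11.67 and 11.60 in Zeb1 cells and 12.33, 12.43 and 12.40 in control cells, a difference of -0.73 (SE 0.061). On 1454060_a_at they were 11.87, 11.87 and 11.86 in Zeb1 cells and 12.58, 12.29 and 12.03 in control cells, a difference of -0.44 (SE 0.117). All Zeb1 arrays lay below all control arrays on each of the 3. The probe sets differ in size by more than their errors, and on the last one the control arrays spread more widely (SD 0.277) than the Zeb1 arrays (SD 0.004). Which transcript forms each probe set reads is not known here. Nras remained bright in Zeb1 cells.

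Rras2, also called TC21, a relative of the classical Ras proteins with transforming activity, was lower by a similar amount on both of its probe sets. On 1417398_at the signals were 12.54, 12.59 and 12.52 in Zeb1 cells, against 13.55, 13.36 and 13.46 in control cells, a difference of -0.91 (SE 0.061) or 1.88-fold. On 1448689_at they were 11.41, 11.48 and 11.51 in Zeb1 cells and 12.36, 12.37 and 12.32 in control cells, a difference of -0.88 (SE 0.059) or 1.84-fold. The groups were apart on both, with gaps many times the spread within a group.

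Rras, known for its part in integrin adhesion, gave overlapping groups. Its signals were 10.86, 10.90 and 11.03 in Zeb1 cells and 11.05, 11.09 and 10.95 in control cells. The difference of -0.10 (SE 0.078) was close to the spread between arrays, and it was the tested member probe set that was not called.

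Rasgrp3 went the other way and was the regulator with the largest difference. On 1438030_at the log2 signals were 11.74, 11.62 and 11.66 in Zeb1 cells, against 6.50, 6.01 and 6.21 in control cells. The difference was 5.43 (SE 0.138), written as at least 43.3-fold because the control mean lay below the median of all signals (6.32), close to background. On 1438031_at the deposited values were 8.83, 8.34 and 9.01 in Zeb1 cells and 3.54, 3.10 and 2.54 in control cells, with all 3 control arrays under the floor, so the cells differed by at least 19.4-fold. No Zeb1 array came near a control array on either probe set. That bound moves with the floor: the log2 difference on 1438031_at was 4.28, but 2.40 once the floor was raised to the 50th percentile of all signals, and 5.67 without a floor.

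Rasgrp1 was low in both groups on its 4 probe sets. The brightest, 1421176_at, read 6.52, 6.27 and 6.002 in Zeb1 cells and 5.25, 5.94 and 6.75 in control cells. The other 3 had means between 4.82 and 5.69 in Zeb1 cells and between 4.67 and 5.52 in control cells. Differences ran from -0.26 to 0.29, groups overlapped on every probe set, and 1434295_at sat at the floor on 2 Zeb1 arrays and 1 control array. With signals this close to background a small difference or a fall in Rasgrp1 could go unseen. A rise of the size seen for Rasgrp3 was not found on any of its 4 probe sets.

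Since both exchange factors are known from blood and vessel cells, markers of those cells were read on the same arrays. Of 12 leukocyte markers 11 were measured and 4 reached the filter (Cd8a, Ms4a1, Cd68 and Lyz2). Over the 11 measured markers the summed linear signal was 807 to 991 in Zeb1 cells and 754 to 836 in control cells. Cd8a read 8.20 to 8.28 in Zeb1 cells and 7.70 to 7.86 in control cells, and the groups overlapped for Ms4a1, Cd68 and Lyz2. The pan-leukocyte gene Ptprc, which did not reach the filter, was at the floor in 2 of 3 Zeb1 cultures. It read 5.23 in Zeb1 vector replicate 1 and 4.63 to 5.43 in control cells. Of 6 endothelial markers Pecam1, Tie1 and Vwf were at the floor on all 6 arrays, 1 reached the filter (Kdr), and the sum was 319 to 462 in Zeb1 cells and 333 to 443 in control cells. The part of such cells in the Rasgrp3 signal was not tested. Of the 5 epithelial markers of the line, Epcam read 6.22 to 7.01 in Zeb1 cells and 13.65 to 13.80 in control cells, and Cdh1 read 10.07 to 10.33 in Zeb1 cells and 14.15 to 14.21 in control cells. Krt8, Krt18 and Krt19 read 13.33 to 14.80 in Zeb1 cells and 13.41 to 14.77 in control cells. The sum over the 5 was 57519 to 61741 in Zeb1 cells and 89443 to 95380 in control cells.

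Rasa1, which switches Ras off, was higher in Zeb1 cells on all 3 of its probe sets. On 1426476_at the signals were 11.995, 11.82 and 11.90 in Zeb1 cells, against 11.16, 11.26 and 11.03 in control cells, a difference of 0.75 (SE 0.080) or 1.69-fold. On 1426477_at they were 10.54, 10.42 and 10.60 in Zeb1 cells and 9.62, 9.77 and 9.82 in control cells, a difference of 0.78 (SE 0.092). These agree in size, and all Zeb1 arrays lay above all control arrays. On the dimmer 1426478_at the signals were 8.003, 7.93 and 7.67 in Zeb1 cells and 7.41, 7.13 and 7.53 in control cells, a difference of 0.51 (SE 0.176) that left a narrow gap between the groups.

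Of the RGK proteins, Gem was far higher in Zeb1 cells. It read 10.93, 10.75 and 10.99 in Zeb1 cells, against 5.54, 5.41 and 4.98 in control cells. The difference was 5.58 (SE 0.173), written as at least 47.9-fold. No array was at the floor, but the control signals lay below the median of all signals, and with the floor raised to that median the difference was 4.57. At that floor 1438030_at (Rasgrp3) differed by 5.29, so the order of Gem and Rasgrp3 depends on the floor.

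Rrad, the closest relative of Gem among the members, stood the other way. It read 6.48, 6.55 and 6.68 in Zeb1 cells and 7.42, 7.44 and 7.04 in control cells, a difference of -0.73 (SE 0.205) or 1.66-fold. The groups did not overlap, at signals not far above the median of all probe sets. Gem and Rrad, whose proteins share a family, thus had differences of opposite sign.

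**Figure D2:**
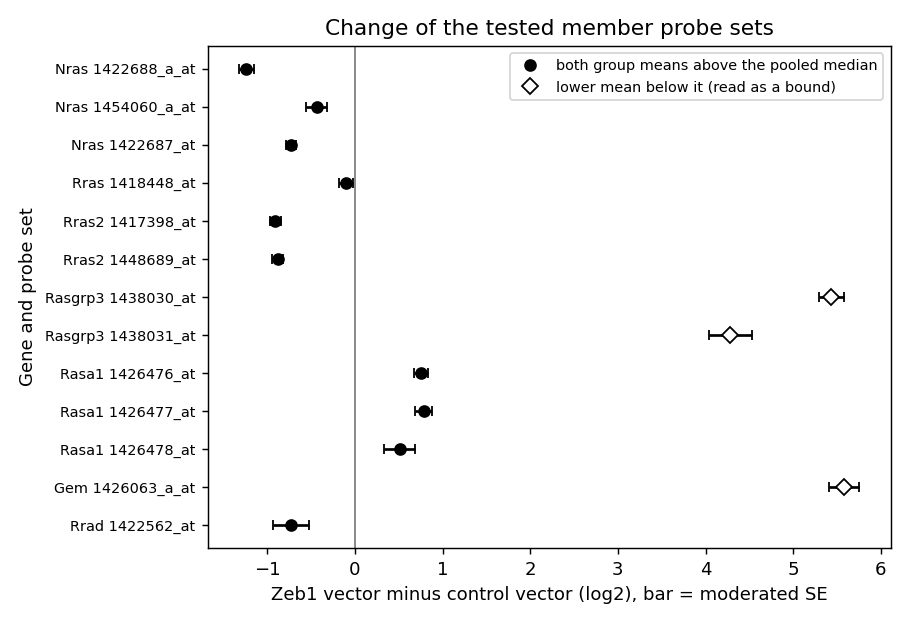
Zeb1 vector minus control vector (log2, horizontal axis) for the 13 tested member probe sets, with bars of 1 moderated SE. Open diamonds, marked as bounds, are probe sets whose lower group mean was below the median of all signals. A floor raised to that median made each of their differences smaller. Gem and Rasgrp3 lie between 4.28 and 5.58, and all other points lie between -1.24 and 0.78.

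The genes nearest in pattern were sought as the smallest distance over the 6 arrays between log2 values centred on each gene's mean. For Gem they were Mmp13, a secreted collagenase (distance 0.40), the claudin Cldn2 (0.45) and the RNA-binding protein Khdrbs3 (0.45). For Rasgrp3 they were Cldn2 (0.28), Mmp13 (0.36) and Zeb1 itself (0.46). Mmp13 was 11.84 ± 0.136 in Zeb1 cells and 6.50 ± 0.280 in control cells (SD, n = 3 each), and Cldn2 was 12.69 ± 0.054 in Zeb1 cells and 7.30 ± 0.077 in control cells. With 2 groups of arrays this likeness reflects mainly an equal difference between the groups.

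The members' places on the chromosomes gave further values. For each member the 5 nearest tested genes on either side were taken in the order of the RefSeq table, a comparison added after the data were seen. Of the 10 neighbours of Nras on chromosome 3, 7 were called lower and 1 higher (Olfml3), with a median log2 change of -0.72, beside -0.44 to -1.24 for Nras itself. With 20 genes on either side 24 of 40 were lower and 8 higher, with a median of -0.58. Among all genes 25.8% were called higher and 23.5% lower. The part of this stretch in the lower signal of Nras was not tested.

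Rasgrp3 on chromosome 17 stood above the 10 genes nearest to it. Of its 10 neighbours 7 were called lower and 1 higher (Ltbp1, a latent TGF-beta binding protein, at 1.42), with a median of -0.47. Fam98a, the next gene, had a change of -1.03. With 20 genes on either side of Rasgrp3 18 of 40 were lower and 4 higher, with a median of -0.27 and a highest change of 5.82. The 10 neighbours of Rras2 on chromosome 7 had a median of 0.16 and none was called lower, so Rras2 was below them. Around Rasa1 on chromosome 13, 5 of 10 were called higher and none lower, with a median of 0.34, and with 20 genes on either side 22 of 40 were higher and 1 lower, with a median of 0.52, beside 0.51 to 0.78 for Rasa1. The part of that stretch in the higher signal of Rasa1 was not tested either.

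Gem on chromosome 4 lies beside Cdh17, an intestinal cadherin, with no annotated gene between them in the RefSeq table. Cdh17 read 11.93 ± 0.044 in Zeb1 cells and 5.76 ± 0.434 in control cells (SD, n = 3 each), at least 71.9-fold higher. The epithelial splicing regulator Esrp1, on the other side of Gem with 4 protein-coding genes between, was at the floor on each Zeb1 array and at 10.88 ± 0.108 in control cells, at least 86.2-fold lower. The median over the 10 neighbours of Gem was 0.30, and the other 8 had changes between 0.06 and 0.98.

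**Figure D3:**
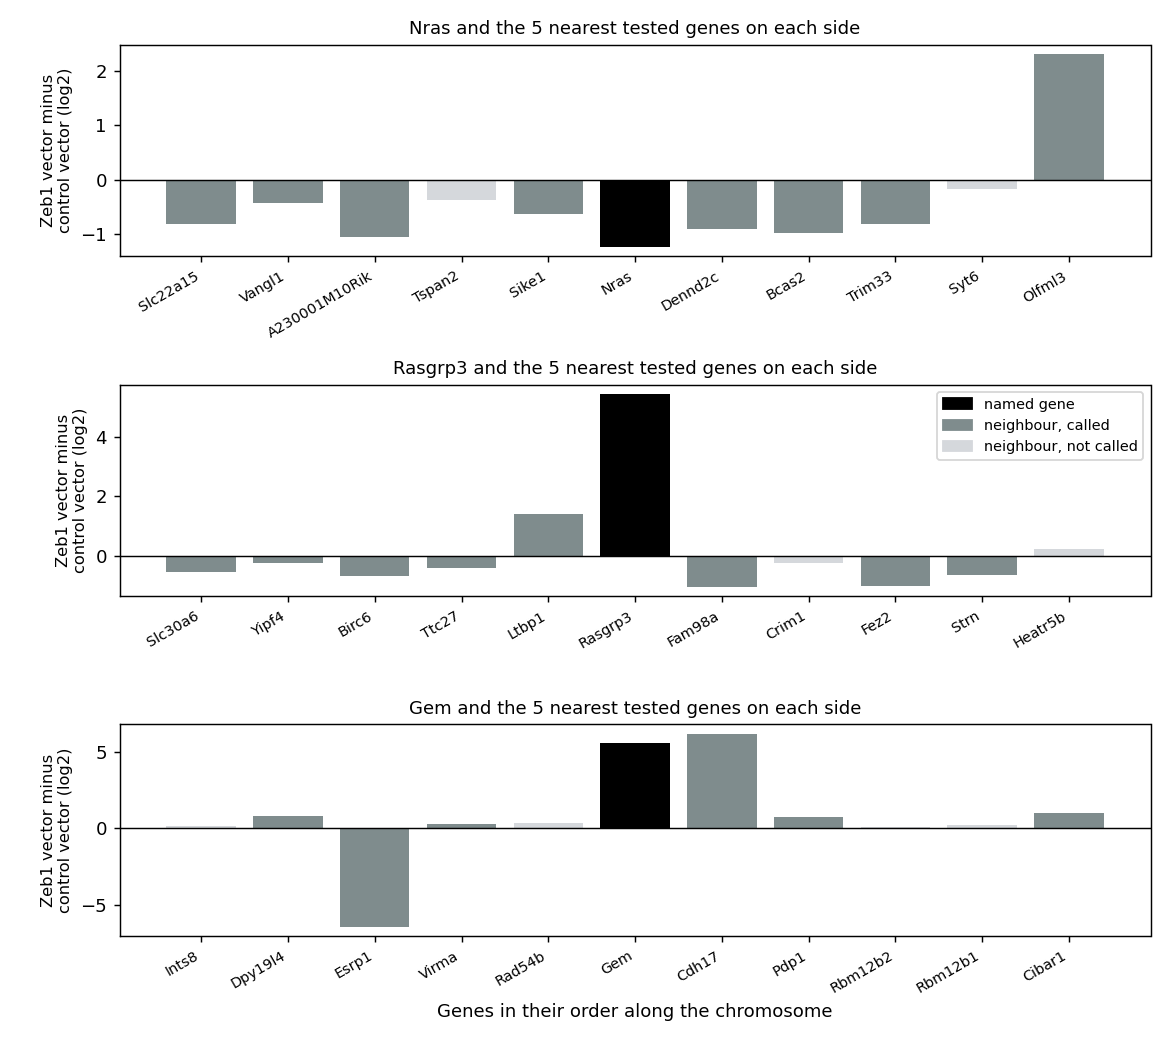
Zeb1 vector minus control vector (log2, vertical axis) for Nras, Rasgrp3 and Gem (black, brightest probe set) and the 5 nearest tested genes on each side in chromosome order. Dark grey bars are called genes and pale bars are not called. Most neighbours of Nras and Rasgrp3 lie below 0, and Gem stands next to Cdh17. For Gem, Cdh17, Rasgrp3 and Esrp1 the lower group mean was below the median of all signals, so bar lengths depend on the floor. Esrp1 was at the floor on each Zeb1 array.

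The other genes of the pathway were read from 9 lists with 192 genes that hold no member. Of these 174 had a probe set and 145 were tested, each by its brightest tested probe set. In Zeb1 cells 51 of the 145 rose, 37 fell and 57 were not called (limma, Benjamini-Hochberg adjusted over all tested probe sets). The median log2 change was 0.07, beside 0.01 over all tested genes. The shares of genes called are to be set beside 25.8% higher and 23.5% lower among all 11893 genes. Of the 88 called, Diras2, Plce1, Shc2 and Shc4 reached the array median on Zeb1 arrays alone and Prkch on control arrays alone. These 5 passed the filter only through the group in which they were high, so they had to differ, and no p is given for them.

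Among 20 other GTPases of the Ras branch 8 rose and 4 fell, with a median of 0.10. Mras, a partner of Shoc2 in Raf activation, rose by 0.84 (adjusted p = 0.00212), Rasl11b by 0.94 (adjusted p = 0.00295) and Nkiras1, an inhibitor of NF-kappaB signalling, by 0.73 (adjusted p = 0.0115). The calls of Rasl11b and Nkiras1 did not survive a floor at the 50th percentile (adjusted p = 0.0548 and 0.0954), and that of Nkiras1 was also lost with no filter on low signals (adjusted p = 0.082). Rasd2 fell by 1.36 (adjusted p = 0.0159), its Zeb1 mean lying below the median of all signals. With the higher floor its log2 change was -0.82 (adjusted p = 0.137), and with no filter it was not called (adjusted p = 0.117). It was likewise not called when Zeb1 vector replicate 1 or 2 was left out (-1.20 and -1.11, adjusted p = 0.0513 and 0.0526) nor when control vector replicate 2 or 3 was (-1.22 and -1.23, adjusted p = 0.0584 and 0.0539). Further genes were picked with their values known: the Ral GTPases Rala and Ralb rose by 0.70 and 0.59, Diras2 was at least 8.37-fold higher with 2 control arrays at the floor, and Rem2, the other RGK protein tested, had a change of 0.14 (adjusted p = 0.173).

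Exchange factors went both ways: of 16 tested, 4 rose and 6 fell, with a median of -0.08. Rasgef1b, an exchange factor of Rap2, rose by 2.27 (9.88 ± 0.150 in Zeb1 cells, 7.61 ± 0.068 in control cells, SD, n = 3 each, adjusted p = 4.28e-07). Rapgef3, the cAMP-driven exchange factor Epac1 for Rap, fell by 1.26 (adjusted p = 9.85e-05), Rgl2, an exchange factor for Ral, by 1.07 (adjusted p = 6.03e-05) and Rapgef5 by 1.04 (adjusted p = 0.000329). Sos1, the exchange factor that couples receptors to Ras, was chosen after its value was seen and fell by 0.44 (adjusted p = 0.0122), and was not called when Zeb1 vector replicate 2 was left out (-0.37, adjusted p = 0.0504), with the floor at the 50th percentile (adjusted p = 0.0689) or with no filter (adjusted p = 0.0611). Rgl1, chosen likewise, gave probe sets that disagreed: the brightest had a change of 0.08 (adjusted p = 0.825) and the other was at least 19.4-fold higher, with all 3 control arrays at the floor. Without control vector replicate 1, 2 or 3 the second stood for the gene, at 4.24, 4.27 and 4.29, and with the higher floor the value was 2.40.

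Of 17 GTPase-activating proteins 8 rose and 3 fell, with a median of 0.31. Rap1gap2 rose by 1.19 (adjusted p = 0.00079) and Sipa1, like it an activating protein for Rap, by 0.93 (adjusted p = 0.00151). Rasal2, which acts on Ras, rose by 0.83 (adjusted p = 0.000369). Ralgapa1, a subunit of the Ral-directed complex, fell by 0.71 (adjusted p = 0.000807). The other tested activating proteins for Ras itself, named with their values known, went both ways. Nf1 rose by 0.59 (adjusted p = 0.00713), Rasa2 by 0.70 (adjusted p = 0.000406) and Rasa3 by 0.65 (adjusted p = 0.000339). Dab2ip fell by 0.33 (adjusted p = 0.0395), and its other probe set had a change of -0.31. That call was lost with the higher floor (adjusted p = 0.12), with no filter (adjusted p = 0.106), with no trend (adjusted p = 0.0698), when any 1 Zeb1 array was left out (adjusted p = 0.0787 to 0.0911) and when control vector replicate 2 or 3 was (-0.22 and -0.34, adjusted p = 0.115 and 0.0679). Rasa4 had a change of 0.55 that was not called (adjusted p = 0.0927), and of 0.74 without control vector replicate 1, where it was (adjusted p = 0.0413).

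In the list of adaptors between receptors and Ras 6 of 12 rose and 1 fell, with a median of 0.25. Shc4 averaged 7.72 ± 0.241 in Zeb1 cells and 5.37 ± 0.288 in control cells (SD, n = 3 each), at least 5.10-fold higher. Its log2 difference was 2.35, but 1.39 once the floor was raised to the 50th percentile. Shc2 was higher by 1.24 on the log2 scale, its control mean lying below the median of all signals. At that floor the difference of Shc2 was 0.40 and no longer called. Plcg1, a phospholipase that makes diacylglycerol, rose by 0.77 (adjusted p = 4.49e-05), and its other probe set had a change of -0.10. The phosphatase Ptpn11, needed for Ras activation by receptors, fell by 0.68 (adjusted p = 1.86e-05), and with the mean of its probe sets by 0.39.

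Among effectors and the ERK cascade, Plce1, a phospholipase C that Ras binds directly, read 10.40, 10.40 and 10.66 in Zeb1 cells, against 6.05, 6.16 and 6.22 in control cells, at least 20.3-fold higher. Of the 20 tested, 3 rose and 7 fell, with a median of -0.14. The Ras-association protein Rassf5 fell by 1.62 (adjusted p = 2.59e-06), the junction protein and Ras binder Afdn by 1.39 (adjusted p = 3.63e-06) and Rassf1 by 0.87 (adjusted p = 7.52e-06). The ERK kinase gene Map2k1, chosen after its value was seen, fell by 0.43 (adjusted p = 0.000447).

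Transcripts known as outputs or feedback inhibitors of ERK divided evenly, with 7 of 17 up and 7 down and a median of 0.06. Spry4 rose by 2.31 (adjusted p = 0.000173), whereas its relatives Spry2 and Spry1 fell by 1.24 (adjusted p = 5.09e-07) and 1.10 (adjusted p = 0.000339). The ERK phosphatase Dusp5 fell by 1.19 (adjusted p = 2.54e-05). Of genes chosen after their values were seen, Egr1 rose by 1.05 (adjusted p = 0.000325), Etv5 by 0.80 (adjusted p = 0.000826) and Spred2 by 0.89 (adjusted p = 6.68e-05), while Phlda1 fell by 1.10 (adjusted p = 4.68e-06) and Dusp1 by 0.98 (adjusted p = 1.42e-05). The spread of signs within the Sprouty genes held for both tested probe sets of Spry2 and all 3 of Spry4.

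Of 15 genes that lipidate or carry Ras proteins 5 rose and 4 fell, with a median of 0.02. Pde6d, a carrier that shields the farnesyl tail of Ras on its way to membranes, read 9.60, 9.59 and 9.31 in Zeb1 cells and 7.56, 7.57 and 7.64 in control cells, a rise of 1.91 (adjusted p = 1.89e-06). Abhd17a, which removes palmitate from Nras, fell by 1.54 (adjusted p = 8.68e-07), and its other probe sets had changes of -1.61 and 0.02. Fntb, the beta subunit of farnesyltransferase, fell by 1.06 (adjusted p = 0.00327), and its alpha subunit Fnta, chosen after its value was seen, fell by 0.46 (adjusted p = 7.84e-05). Pggt1b, a subunit of the geranylgeranyl enzyme, rose by 0.76 (adjusted p = 0.0295), but was not called when Zeb1 vector replicate 1 or 3 was left out (0.69 and 0.75, adjusted p = 0.0833 and 0.0644) nor when control vector replicate 1 or 3 was (0.57 and 0.63, adjusted p = 0.0975 and 0.0842). Its call was also lost with the higher floor (adjusted p = 0.2), no filter (adjusted p = 0.173) or no trend (adjusted p = 0.0698).

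Diacylglycerol, which recruits Rasgrp proteins, is made by phospholipases C and removed by diacylglycerol kinases. The list held these enzymes and also protein kinases C, which are diacylglycerol receptors. The phospholipases C Plcg1, Plcg2 and Plce1 stood in other lists and are not in its counts. They were higher in Zeb1 cells, Plcg1 by 0.77 (-0.10 on its other probe set), Plcg2 by 0.68 and Plce1 at least 20.3-fold. Of the list's 13 tested genes 4 rose and 4 fell, with a median of 0.30. Plcb1 and the diacylglycerol kinases Dgka, Dgkd and Dgke rose, while the phospholipases Plcb3 and Plcd3 and the protein kinases Prkcd and Prkch fell. The protein kinase Prkch, another diacylglycerol receptor, read 4.84, 5.96 and 5.55 in Zeb1 cells, against 8.36, 8.32 and 8.26 in control cells, at least 7.28-fold lower. Prkcd, a further such kinase, fell by 1.08 (adjusted p = 9.89e-06). The kinase Dgka rose by 0.81 (adjusted p = 0.0222), but was not called when Zeb1 vector replicate 2 (0.63, adjusted p = 0.0913) or control vector replicate 3 (0.59, adjusted p = 0.0613) was left out, with the higher floor (adjusted p = 0.133) or with no filter (adjusted p = 0.116). Plcb1 was called higher, by 2.26 (adjusted p = 0.000311), on its brightest tested probe set, whose control mean lay below the median of all signals. Its other tested probe sets had changes between -0.22 and 1.06. The mean of its probe sets was 0.77 on the log2 scale, which was not called (adjusted p = 0.0555). Without Zeb1 vector replicate 1, 2 or 3 another probe set stood for Plcb1, with changes of -0.15, -0.37 and -0.13 that were not called (adjusted p = 0.737, 0.364 and 0.757).

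Among 15 partners and targets of Gem and Rrad 6 rose and 1 fell, with a median of 0.12. Cacnb2, a beta subunit of voltage-gated calcium channels, the part that RGK proteins bind, read 10.25, 10.22 and 10.42 in Zeb1 cells, against 8.19, 8.37 and 8.31 in control cells. It rose by 2.01 (SE 0.105, adjusted p = 3.88e-07), and its other probe set rose by 2.32. The kinase Camk2d rose by 0.97 (adjusted p = 1.89e-05). The channel subunit Cacna1d rose by 1.02 (SE 0.343, adjusted p = 0.0344), its control mean lying below the median of all signals. Cacna1d was not called when any 1 Zeb1 array was left out (1.11, 0.91 and 1.05 without replicates 1, 2 and 3, adjusted p = 0.0596, 0.112 and 0.072) and without control vector replicate 1 (0.63, adjusted p = 0.0811), with no filter (adjusted p = 0.162) or with no trend (adjusted p = 0.0558). Gmip, a Gem-interacting protein, rose by 0.65 (adjusted p = 0.0335), but was not called with the replicate block (adjusted p = 0.0633), nor when Zeb1 vector replicate 1 or 3 was left out (0.58 and 0.60, adjusted p = 0.122 and 0.0998), nor when control vector replicate 1 or 3 was (0.53 and 0.64, adjusted p = 0.108 and 0.0697). Its call was also lost with the higher floor (adjusted p = 0.0578), no filter (adjusted p = 0.0757) or quantile normalization (0.55, adjusted p = 0.0587).

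**Figure D4:**
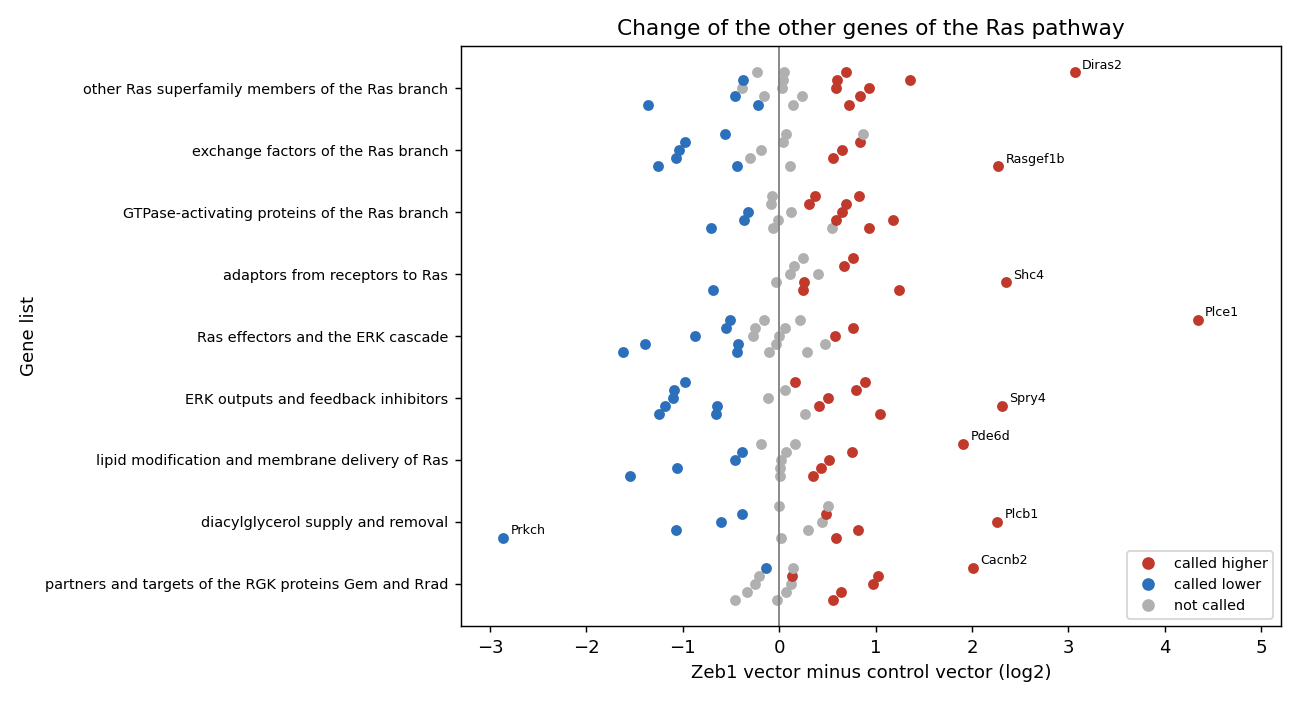
Zeb1 vector minus control vector (log2, horizontal axis) for the 145 tested genes of the 9 pathway lists (vertical axis, points spread within a list for legibility). Red points were called higher, blue points lower and grey points were not called. Points run between -2.86 (Prkch) and 4.34 (Plce1), and for both the lower group mean was close to background.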

How the data were processed

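Total RNA of 6 cultures was hybridised to Affymetrix arrays as biotinylated cRNA, per the labels' protocols. The table deposited by the authors holds log2 values for 45101 probe sets, made with MAS5 per the submitters' processing notes, version not given in the sources used here. On the linear scale each array had a trimmed mean (2% off either end) of 500.003 to 500.2. Signals below the pooled 25th percentile (log2 4.45, linear 21.8) and 2 missing values, none of them a member's, were raised to that floor. Of 34945 probe sets with 1 symbol, the 20594 (11893 genes) that reached their array's median on at least 3 of 6 arrays were tested with limma 3.58.1 in R 4.3.3 (lmFit, then eBayes with trend), adjusting by Benjamini-Hochberg over all of them and a threshold of 0.05. A gene was represented by its brightest tested probe set. The fit was tested on simulated data. With 3 arrays per group their number limits the precision (median SE 0.147), and signals near the floor carry little beyond background. Array correlations were 0.979 to 0.984 within groups and 0.867 to 0.873 between them, across probe sets.

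Symbols came from the platform annotation, looked up in the RefSeq table (GRCm38.p6, used for names, gene order and promoter sequence). Members and lists were chosen with earlier results of these data known. Pathway genes named were the 4 called genes of each list with the largest change and no array at the floor, plus those said to be chosen later. A fold is written as at least N-fold where the lower mean lay below the pooled median (6.32). The words mark a lower mean close to background, not a limit over the error or the alternatives. Alternatives were other floors, filters and normalization, no trend, the mean of probe sets, a replicate block and each array left out. The neighbour counts were added after seeing the data.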

Additional observations from a re-analysis of the deposited data

How the results depend on the processing

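Across the alternatives the number of probe sets called was 7516 to 9685, against 9493 as reported, and that of pathway genes called was 66 to 94, against 88. Of the members' probe sets 8 to 12 were called, with 10 to 17 tested, against 12 of 13 as reported. Beside them stand 24.5% higher and 21.6% lower among all tested probe sets as reported. Nothing is read from these member counts, which also fell where probe sets missed the filter. The calls of 1426478_at (Rasa1), 1454060_a_at (Nras) and 1422562_at (Rrad) were lost under some of them. That of Rasa1 was lost with the higher floor, no filter, quantile normalization or the replicate block. It was also lost without Zeb1 vector replicate 1 or 2, or control vector replicate 1 or 2. That of Nras was lost with the higher floor, no filter or no trend. That of Rrad was lost without Zeb1 vector replicate 1, or control vector replicate 1 or 2. Gem and 1438031_at (Rasgrp3) reached the array median on Zeb1 arrays alone and missed the filter without any 1 of them. With the median required on all 6 arrays 1438030_at (Rasgrp3), which reached it on 1 control array, missed it too. With the replicate block 9377 probe sets, 84 pathway genes and 11 of 13 member probe sets (without 1426478_at) were called. Deviations of same-numbered arrays correlated at 0.02, 0.01 and -0.04, and 1 of the 3 Zeb1 arrays correlated best with its own number, so the numbers were not taken as pairs.

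Among the pathway genes named, signs turned for Plcb1, where another probe set came to stand for the gene, and for Rgl1 on the same probe set. Plcb1 was at -0.22 (adjusted p = 0.488) with the median required on all 6 arrays, and at -0.37 to 2.66 with each array left out. Rgl1 was at -0.0081 with quantile normalization, -0.11 to 4.29 with each array left out, 2.40 with the higher floor and 2.18 as the mean of its probe sets. The Rasgrp1 probe set 1434295_at was at -0.88 with no floor, against 0.15 as reported.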
